A study of Mus musculus with 8 samples.

Results

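The genes of the mitochondrial respiratory chain and ATP synthase were followed across 8 microglial expression arrays. Members were chosen by symbol alone: the complex I subunit genes (Ndufa, Ndufb, Ndufc, Ndufs and Ndufv), the complex II genes Sdha to Sdhd, the complex III genes (Uqcr), cytochrome c (Cycs), the complex IV genes (Cox4 to Cox8) and the ATP synthase genes (Atp5), with assembly factors and pseudogenes left out. The rule found 83 of the 30702 named genes, namely 34 of complex I, 4 of complex II, 8 of complex III, cytochrome c, 20 of complex IV and 16 of ATP synthase (complex V). Of these, 76 were bright enough to be tested, among 18234 genes tested. The 7 that stayed below the median of named probe sets on every array were Atp5e, Cox7a1, Cox7b2, Cox8b, Ndufa4l2, Ndufc1 and Sdhd. Among the tested members, Atp5d and Ndufa6 passed that level on 1 array only, Cox6a2 on 3, Cox8c on 5, Uqcrfs1 on 6 and Cox4i2 on 7. Ndufa4, named after complex I but now placed in complex IV, was counted there.

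The cells were microglia, macrophages that live in brain and spinal cord, taken from C57Black/6J mice and profiled as total RNA on Affymetrix whole-transcript arrays. The 8 groups crossed 2 genotypes with 4 states, with 1 array in each group and so no replicate of any group. The control mice are labelled FL or F/F (and wt in 1 place), and the others icKO, for a conditional knockout of 1 gene directed at oligodendroglia. The deletion is therefore directed at cells other than the ones profiled. In 1 state mice were naive; the others were EAE (experimental autoimmune encephalomyelitis, an induced autoimmune attack on myelin), EAE with iguratimod (an anti-inflammatory drug) and a further pair of EAE arrays labelled p50, a term the labels do not explain. Among the control titles only that of the p50 array has F/F, and the p50 titles name the cells Mic where the other 6 have MG. The labels give no age, dose, time of sampling or number of animals, and no Cre driver. With 1 array per group, the p-values below rest on departures from additive state and genotype terms. These departures may be technical or may be differences that depend on both state and genotype, and no replicate spread was measured. The 9 measured of 10 microglial markers lay above the array median on every array, with summed intensities from 463160 to 699428. Array median intensities lay between 243 and 269. The p50 arrays stood apart from the other 6 in sex-linked transcripts. The X-linked non-coding RNA Xist read 15.90 and 16.64 there, as log2(intensity + 16), and between 7.71 and 8.30 on the others, and the 3 measured Y-linked genes Kdm5d, Uty and Eif2s3y were called lower there than in naive and in EAE.

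The respiratory chain passes electrons from NADH (complex I) and succinate (complex II) through complex III and the carrier cytochrome c to oxygen at complex IV. The proton gradient built on the way drives ATP synthase. Each complex other than complex II also needs subunits encoded in mitochondrial DNA, none of which had a probe set of its own in the naming table, so the values below describe nuclear transcripts. Macrophages and microglia are known to shift between oxidative phosphorylation and glycolysis when they are activated.

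Promoters of these genes are known for binding sites of nuclear respiratory factors, so 4 short motifs were searched on both strands of the 300 bases around each annotated start (250 before and 50 after it, RefSeq, GRCm38.p6). Of the 83 members, 68 were in that table. The ETS motif CCGGAAG was found in 17 of 68 members (25%, against 9.93% of all 27025 genes in the table), and the YY1 motif AAGATGGC in 10 (14.7% against 3.19%). The palindromic consensus motif of NRF1 was found in 4 members (5.88% against 1.07%), and the ERR motif TCAAGGTCA in 2 (2.94% against 0.466%). No pair of these motifs contains the other. A match describes letters and is not a binding site, and the shares were not tested. Windows of the 250 bases before the start are given for 4 genes, each on its gene's strand with a searched motif in capitals: Uqcrh (chr4:116075071-116075320, minus strand), with 1 ETS motif on the opposite strand, 10 bases before the start, Atp5g3 (chr2:73911327-73911576, minus strand), with 1 ERR motif on the opposite strand, Cox6a1 (chr5:115348959-115349208, minus strand), with 1 NRF1 motif and, on the opposite strand, 1 ETS motif, and Cox5a (chr9:57520982-57521231, plus strand), with none. They were chosen to show the gene with the largest called difference, a called gene of the c ring, a window that holds motifs of both factors, and the gene with the lowest adjusted p, which holds none.
Uqcrh: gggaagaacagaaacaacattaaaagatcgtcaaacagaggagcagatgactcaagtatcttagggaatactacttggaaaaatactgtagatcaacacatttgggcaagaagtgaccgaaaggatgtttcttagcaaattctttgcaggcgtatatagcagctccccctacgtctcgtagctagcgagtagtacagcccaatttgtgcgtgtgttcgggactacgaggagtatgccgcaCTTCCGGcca
Atp5g3: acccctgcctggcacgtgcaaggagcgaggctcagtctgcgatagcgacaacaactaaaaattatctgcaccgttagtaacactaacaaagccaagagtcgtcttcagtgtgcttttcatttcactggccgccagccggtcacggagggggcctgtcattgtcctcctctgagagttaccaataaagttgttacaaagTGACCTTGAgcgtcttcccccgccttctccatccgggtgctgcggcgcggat
Cox6a1: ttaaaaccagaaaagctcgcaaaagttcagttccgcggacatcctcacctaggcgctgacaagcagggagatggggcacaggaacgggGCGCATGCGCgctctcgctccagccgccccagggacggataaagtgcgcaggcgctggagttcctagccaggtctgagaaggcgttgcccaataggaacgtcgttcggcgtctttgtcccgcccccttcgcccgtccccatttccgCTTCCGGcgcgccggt
Cox5a: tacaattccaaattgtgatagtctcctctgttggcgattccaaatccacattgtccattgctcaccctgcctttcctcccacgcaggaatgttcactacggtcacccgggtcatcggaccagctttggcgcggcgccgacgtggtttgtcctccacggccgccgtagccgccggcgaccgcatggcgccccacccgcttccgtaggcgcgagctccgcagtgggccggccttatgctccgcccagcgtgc
No match in the Cox5a window says only that these letters are absent there.

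The first comparison asked how EAE microglia differ from naive ones across both genotypes. Respiratory chain and ATP synthase transcripts lay higher in EAE: 72 of 76 tested members had a positive difference, and 11 passed the test (limma, state and genotype as additive terms, all 8 arrays, Benjamini-Hochberg adjusted p under 0.05 over all genes tested), all of them higher. Over all genes, 3.38% were called higher by the same rule. The median member difference was 0.43 on the log2(intensity + 16) scale, beside 0.01 over all genes tested. Both EAE arrays lay above both naive arrays for 65 members, against 29.5% of all genes, and below them for 2, against 22.5% of all genes. The counts of higher members include Atp5d and Ndufa6, which each passed the brightness filter on 1 EAE array only. They also include Cox6a2, which passed it on both EAE arrays and the icKO iguratimod array. The place of these genes in counts that use EAE, here and below, therefore depends on their EAE values, and none of them was called. The lowest of the 8 arrays was control naive for 42 of the 76 members, and the highest was icKO EAE for 32 and control EAE for 29.

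**Figure D1:**
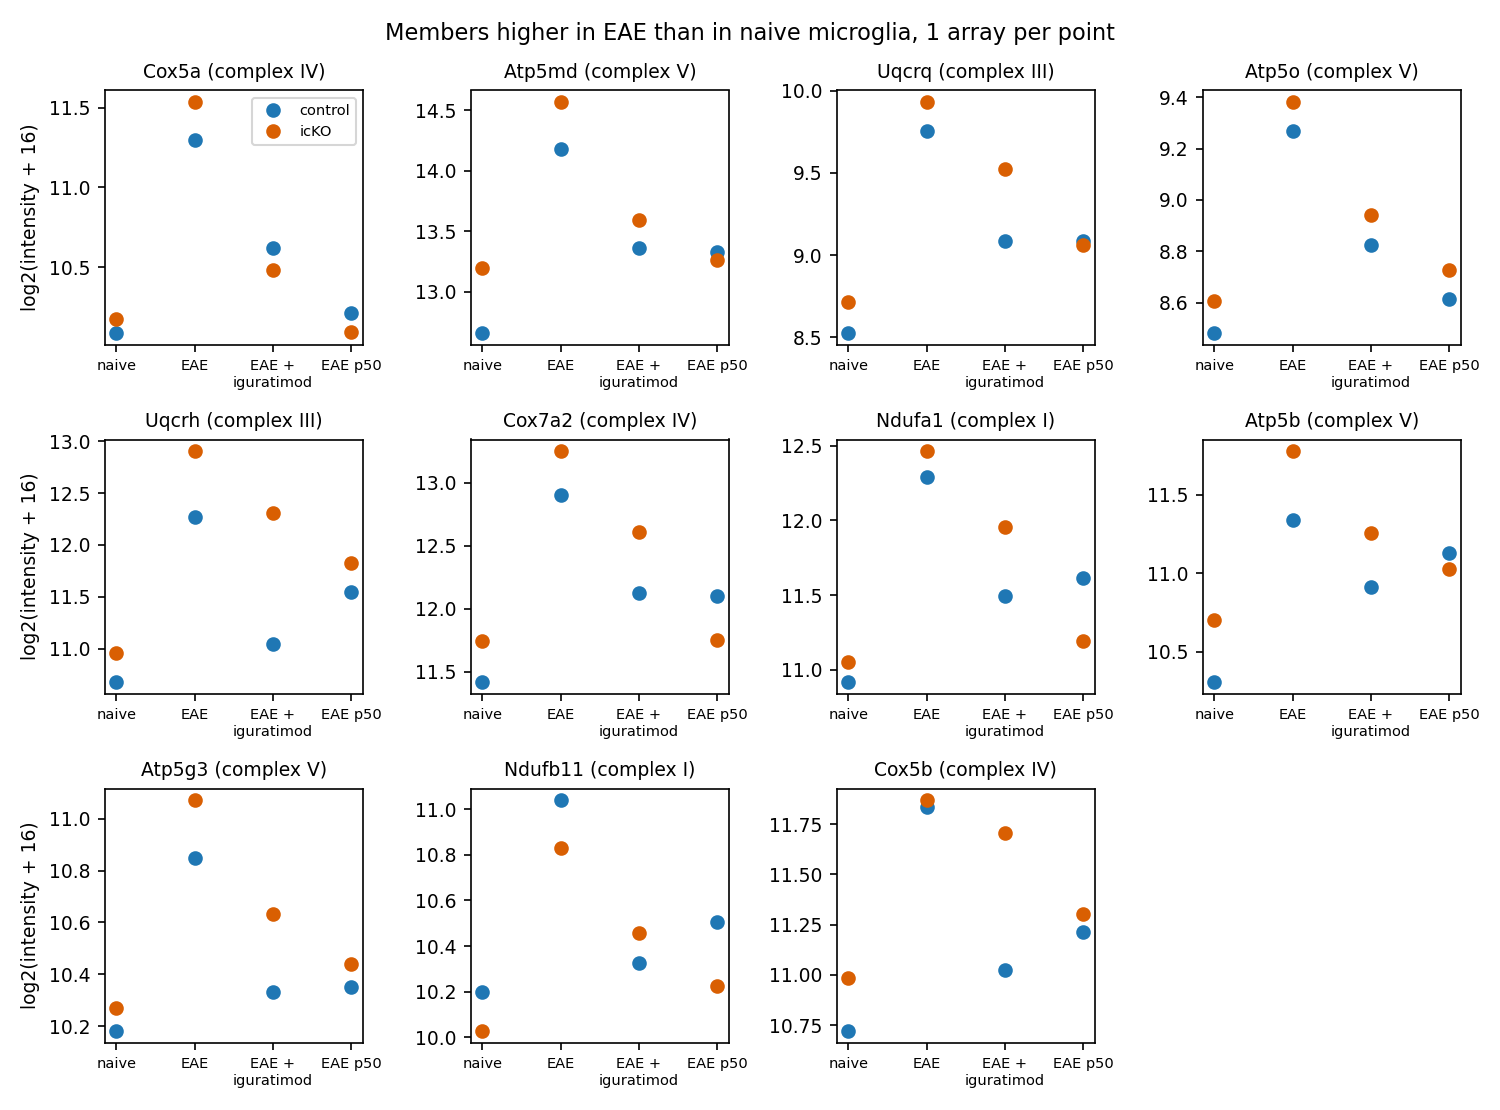
Levels, as log2(intensity + 16), of the 11 members called higher in EAE than in naive microglia, in the 4 states (horizontal axis), 1 array per point and no error bar because each group has 1 array (blue, control; orange, icKO). Both EAE points lie above both naive points in every panel, and each vertical axis has its own range.

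In complex I, the entry point for electrons from NADH, 30 of 33 tested members were higher in EAE and 2 passed the test. Both are accessory subunits on the X chromosome. Ndufa1, an accessory subunit needed for assembly, read 10.92 and 11.05 on the control and icKO naive arrays, 12.29 and 12.46 in EAE, 11.49 and 11.95 with iguratimod and 11.62 and 11.19 on the p50 arrays. Its EAE arrays were the highest and its naive arrays the lowest of the 8, with no overlap. The difference from naive was 1.39 ± 0.22 (SE; adjusted p = 0.0331, limma). Ndufb11 read 10.20 and 10.03 naive, 11.04 and 10.83 in EAE, 10.33 and 10.46 with iguratimod and 10.50 and 10.22 on the p50 arrays. Again the EAE arrays stood above all others, by 0.82 ± 0.14 over naive (adjusted p = 0.0433, limma). The third X-linked member, Cox7b of complex IV, did not pass (12.31 and 12.39 naive, 12.58 and 12.32 in EAE).

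The 6 measured core subunits of complex I, which carry its flavin and iron-sulfur centres or quinone site, had a median difference of 0.18 and none passed. The highest of them was Ndufs8 at 0.65 ± 0.22 (adjusted p = 0.191, limma), with 9.76 on the control and 10.45 on the icKO EAE array. The 27 tested accessory subunits had a median of 0.36. Their lowest differences were in Ndufb4b (-0.25), Ndufb10 (-0.08) and Ndufab1, the mitochondrial acyl carrier protein (-0.08). Ndufb4b read 11.06 and 11.59 naive and 11.49 and 10.65 in EAE, so its arrays overlapped and the genotypes moved in opposite directions. Ndufa9, an accessory subunit near the quinone site, had 10.73 on the control naive array and between 11.48 and 11.77 on the other 7, so 1 array sets its difference of 0.41.

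Complex II, which takes electrons from succinate and is also an enzyme of the tricarboxylic acid cycle, had 3 tested members, all higher in EAE and none called. Sdhb, the iron-sulfur subunit, read 10.11 and 10.38 naive and 10.70 and 10.93 in EAE, a difference of 0.57 ± 0.17 (adjusted p = 0.151, limma). Sdha, the flavoprotein, differed by 0.32 and Sdhc, a membrane anchor, by 0.34.

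In complex III all 8 members were higher in EAE, with a median of 0.74, and 2 passed the test. Uqcrh, the hinge protein at the cytochrome c side, whose upstream window with an ETS motif is printed above, read 10.68 and 10.96 naive, 12.27 and 12.90 in EAE, 11.05 and 12.31 with iguratimod and 11.55 and 11.82 on the p50 arrays. The naive arrays were the lowest, the control EAE array lay just below the icKO iguratimod array, and the icKO EAE array was the highest. Its difference of 1.77 ± 0.26, a 3.41-fold change, was the largest of the called members (adjusted p = 0.0305, limma). Uqcrq, a small membrane subunit, read 8.52 and 8.71 naive, 9.75 and 9.93 in EAE, 9.08 and 9.52 with iguratimod and 9.08 and 9.06 on the p50 arrays, with no overlap of EAE and any other state (1.22 ± 0.15, adjusted p = 0.0227, limma). Uqcr10, another small subunit, read 9.20 and 8.34 naive and 9.51 and 10.34 in EAE. The EAE arrays lay above both naive arrays, but the difference was 0.31 in control and 2.0 in icKO, and the fitted 1.15 ± 0.38 did not pass (adjusted p = 0.182, limma). Uqcrfs1, the Rieske iron-sulfur protein, had a difference of 0.24. Uqcrb, a small subunit on the matrix side, read 12.35 and 12.55 naive and 12.92 and 13.58 in EAE, a difference of 0.80 that did not pass (adjusted p = 0.111, limma).

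Cycs, the electron carrier between complexes III and IV and a trigger of apoptosis when released, read 12 and 12.30 naive and 12.70 and 12.99 in EAE, a difference of 0.70 ± 0.17 that did not pass (adjusted p = 0.097, limma). Its brightest probe set lies on chromosome 19 by its row identifier, while the gene lies on chromosome 6. The probe set on chromosome 6 gave a difference of 0.50.

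Complex IV reduces oxygen, and its nuclear subunits surround a catalytic core made in the mitochondrion. Of 16 tested members 15 were higher in EAE and 3 passed, with a median of 0.69. Cox5a, which passed with the lowest adjusted p of any member, read 10.09 and 10.17 naive, 11.29 and 11.53 in EAE, 10.62 and 10.48 with iguratimod and 10.21 and 10.09 on the p50 arrays. The EAE arrays stood clear of all 6 others, and the p50 arrays lay at the naive level (EAE minus naive 1.28 ± 0.14, adjusted p = 0.0213, limma). Cox5b, its zinc-binding neighbour in the complex, read 10.72 and 10.98 naive and 11.84 and 11.87 in EAE (1.0 ± 0.19, adjusted p = 0.0488, limma). On the iguratimod arrays Cox5b split by genotype, at 11.02 in control and 11.70 in icKO.

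Cox7a2, the widely expressed form of subunit 7a, read 11.42 and 11.74 naive, 12.90 and 13.25 in EAE, 12.12 and 12.61 with iguratimod and 12.10 and 11.75 on the p50 arrays. Its EAE arrays were the highest of the 8 (1.5 ± 0.22, adjusted p = 0.0305, limma). Among complex IV genes the 11 common members had a median of 0.85, and the 4 tested of 8 tissue-restricted forms, known from muscle, lung, testis or hypoxic cells, a median of 0.12 with none called. Most paralogue pairs showed this side by side as differences between states: Cox4i1 0.87 and Cox4i2 0.13, Cox6b1 1.13 and Cox6b2 -0.05, Cox8a 0.85 and Cox8c 0.11. The pair of Cox6a1 (0.72) and Cox6a2 (0.59) lay close together. Cox4i2, Cox6a2 and Cox8c passed the brightness filter on only some arrays. Their mean levels of 8.33, 8.16 and 8.31 lay near the filter level, which was 8.12 to 8.24 across the arrays, and differences of such dim genes can be understated. Cox7a2l, which links complexes III and IV into supercomplexes, differed by 0.71 (9.80 and 10.12 naive, 10.47 and 10.87 in EAE) and did not pass (adjusted p = 0.0969, limma).

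ATP synthase had 15 tested members, all higher in EAE, and 4 passed. Atp5d was among the 15 only through the icKO EAE array, the 1 array on which it passed the brightness filter. Atp5b, the catalytic beta subunit, read 10.31 and 10.70 naive, 11.34 and 11.78 in EAE, 10.92 and 11.25 with iguratimod and 11.13 and 11.03 on the p50 arrays. Both EAE arrays were the highest, with the icKO iguratimod array just below them (1.05 ± 0.17, adjusted p = 0.0357, limma). Atp5o, the subunit that joins the head to the peripheral stalk, read 8.48 and 8.60 naive and 9.27 and 9.38 in EAE (0.78 ± 0.11, adjusted p = 0.0293, limma). Atp5md, a small membrane subunit associated with dimers of the enzyme, read 12.66 and 13.20 naive, 14.18 and 14.57 in EAE, 13.36 and 13.59 with iguratimod and 13.33 and 13.27 on the p50 arrays. Its 4 naive and EAE arrays did not overlap, with all other arrays between (1.44 ± 0.17, adjusted p = 0.022, limma).

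The 3 genes of the c ring encode the same mature protein, the rotor subunit through which protons pass. Atp5g3, whose window with an ERR motif is printed above, read 10.18 and 10.27 naive, 10.85 and 11.07 in EAE, 10.33 and 10.63 with iguratimod and 10.35 and 10.44 on the p50 arrays. Both EAE arrays were above the other 6 (0.74 ± 0.12, adjusted p = 0.0394, limma). Atp5g1 differed by 0.24 and Atp5g2 by 0.96, neither past the threshold. The Atp5g2 value comes from a probe set on chromosome 7 while the gene lies on chromosome 15, and the probe set there gave 1.04. Atp5l, whose brightest probe set also lies on another chromosome (5, while the gene lies on 9), had a difference of 0.79 against 0.25 with the brighter of the probe sets on chromosome 9. The largest difference of any member was in Atp5mpl, a small membrane subunit, at 1.79 ± 0.64 (adjusted p = 0.21, limma), from 10.84 and 11.27 naive to 13.31 and 12.38 in EAE.

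**Figure D2:**
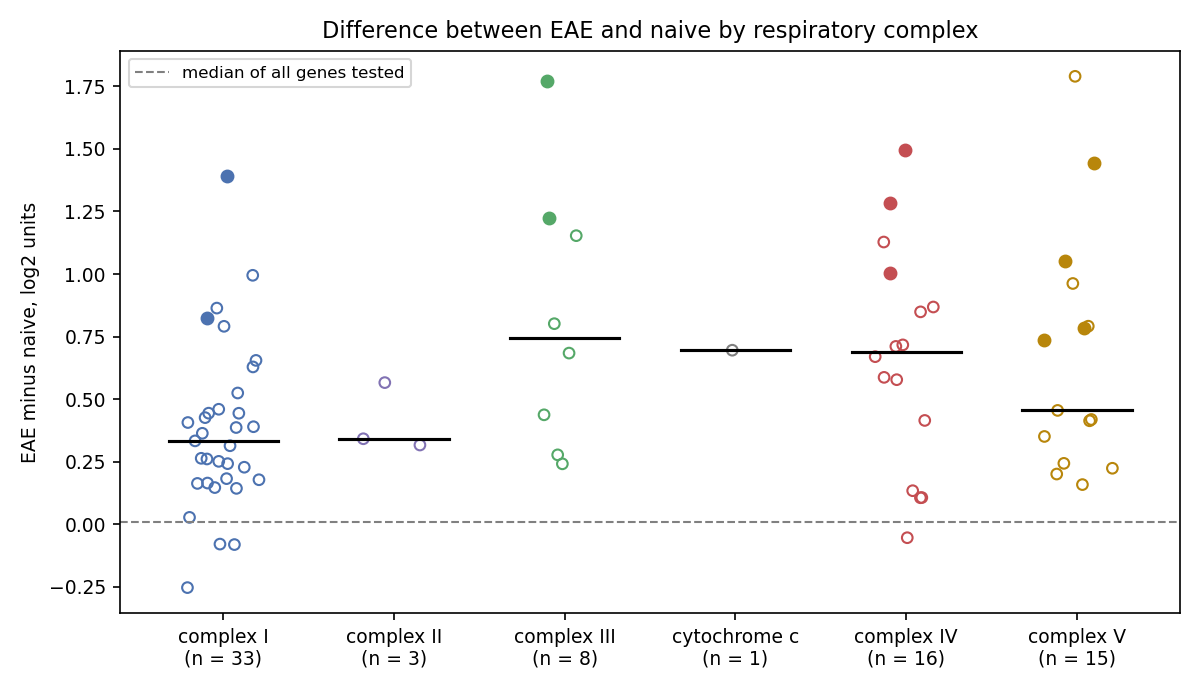
EAE minus naive difference of each of the 76 tested members, in log2 units, grouped by complex along the horizontal axis (filled points passed the test, open points did not; black bars are medians, the dashed line the median of all genes tested). Medians were 0.33 in complex I, 0.34 in complex II, 0.74 in complex III, 0.69 in complex IV and 0.45 in complex V.

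Set side by side, the medians were 0.33 for complex I, 0.34 for complex II, 0.74 for complex III, 0.69 for complex IV and 0.45 for complex V, and 0.70 for cytochrome c. These are descriptions of unequal groups whose members share the same arrays, and the difference between complexes was not tested. Brighter members had larger differences: over the 76 the Pearson correlation of mean level with difference was 0.51 and the Spearman correlation 0.52, against 0.24 over all genes tested, as a description of shared arrays. The 38 brighter members had a median of 0.64, with 9 of the 11 calls, and the 38 dimmer ones 0.29. In single pairs of arrays, 13 members were at least 2-fold higher in EAE in control (4.59% of all genes) and 10 in icKO (4.72%), with medians of 0.55 and 0.33. The pairs are single arrays, so these counts have no test.

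The calls rest on these few arrays. Leaving out any 1 of the 4 naive and EAE arrays left 0 members past the threshold, and leaving out a p50 array or both left 6, while quantile normalization left 4 (Atp5md, Atp5o, Cox5a and Uqcrq) and a trended robust prior 7.

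Other metabolic and ribosomal gene lists are given from the same fit by their counts, and none was tested against the members. Glycolysis had 2 of 14 tested genes called higher, with a median of 0.40: Ldha, which makes lactate, read 9.24 and 9.17 naive and 9.91 and 9.95 in EAE (adjusted p = 0.0354, limma), and Slc2a1, the glucose transporter, 9.16 and 9.33 naive and 10.34 and 11.21 in EAE (adjusted p = 0.0349, limma). The 15 tricarboxylic acid cycle genes were all higher with none called, median 0.19. The 38 assembly factors tested had a median of 0.09 and 0 calls, as had 65 mitochondrial ribosomal proteins (0.11), 12 regulators of mitochondrial genes (0.07), 9 carriers (0.32) and 4 further chain genes outside the rule (0.08), of which Cyc1, the cytochrome c1 of complex III, differed by 0.55. Cytosolic ribosomal protein genes had 17 of 40 called higher, with a median of 0.85.

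Of the marker lists of other cells, those of neutrophils and monocytes moved most with EAE. All 9 tested neutrophil markers were higher than in naive (median 3.56, none called), as were all 7 tested monocyte markers (median 2.24, 3 called). The summed intensity of the 10 neutrophil markers was 25710 and 6364 in naive control and icKO, 900220 and 103305 in EAE, 40568 and 132446 with iguratimod and 6112 and 12919 on the p50 arrays. That of the 8 monocyte markers was 3274 and 2574 naive, 26766 and 27713 in EAE, 5258 and 12174 with iguratimod and 3525 and 4368 on the p50 arrays. The monocyte sum was highest in EAE in both genotypes, and the neutrophil sum in EAE in control but with iguratimod in icKO. Of the 9 microglial markers 8 were lower in EAE than naive (median -0.48, none called), opposite to the members. The part of these markers in the member values was not tested. T cell markers summed to between 1627 and 2331, astrocyte markers to 1739 to 2312, oligodendrocyte markers to 1321 to 1488, endothelial markers to 1135 to 1294 and neuron markers to 745 to 839. In such mixed material fewer cells of a type and less RNA per cell cannot be told apart.

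The second comparison set iguratimod in EAE against EAE without it. No member passed the test (0 of 76, and 0.0% of all genes), and the lowest adjusted p of any gene was 0.505 (limma). At an unadjusted p under 0.05 there were 22 members and 1551 genes, 8.51% of those tested. Even so, 71 of the 76 members lay lower with iguratimod, with a median of -0.29 beside -0.01 over all genes. Both iguratimod arrays lay below both EAE arrays for 39 members, against 18.9% of all genes, and above them for 1, against 14.9% of all genes.

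The largest differences were in 3 genes already high in EAE: Uqcrh (-0.91 ± 0.26), Atp5md (-0.90 ± 0.17) and Cox5a (-0.86 ± 0.14). Cox5a lay lower on both arrays, at 10.62 and 10.48 against 11.29 and 11.53. Complex III had the lowest median at -0.49 (all 8 lower) and complex V -0.17 (all 15 lower), with -0.18 for complex I and -0.39 for complex IV, and -0.39 for Cycs. Of the 5 members on the other side, none past the threshold, the highest were Cox6b2 (0.20), Cox8c (0.07) and Ndufab1 (0.04), and the others were Ndufb10 (0.02) and Ndufs6, whose difference was near 0.

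Taken by genotype, in control, 73 of 76 members lay lower with iguratimod than without, with a median of -0.42, and in icKO 49 did, with a median of -0.13. This difference was not tested. Uqcrh was lower in both, by 1.23 in control and 0.59 in icKO. Atp5mpl went opposite ways: control arrays read 13.31 without the drug and 11.76 with it, icKO arrays 12.38 and 13.84, so that its icKO iguratimod array was the highest of all 8. Ndufb4b (11.49 to 10.70 in control, 10.65 to 11.30 in icKO) and Cox8c (8.03 to 8.67, 8.63 to 8.13) also went opposite ways. The neutrophil marker sum was 900220 in EAE and 40568 with iguratimod in control, and 103305 and 132446 in icKO. The monocyte marker sum was lower with iguratimod in both genotypes, at 26766 and 5258 in control and 27713 and 12174 in icKO. The part of these sums in the member values was not tested.

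**Figure D3:**
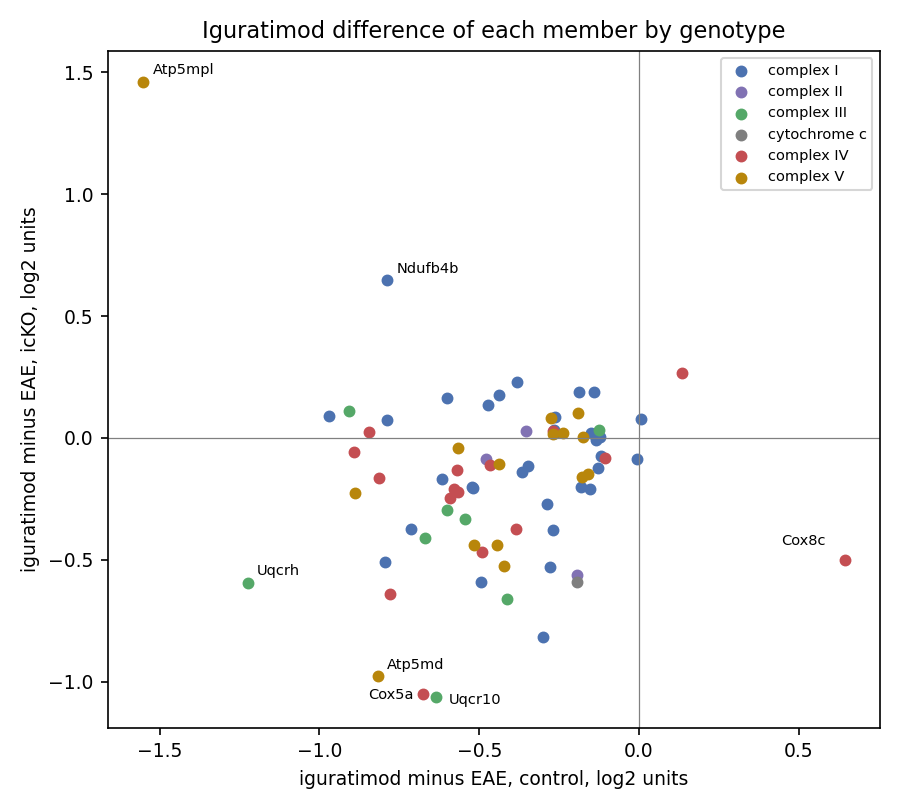
Iguratimod minus EAE difference of each tested member in control (horizontal axis) and icKO (vertical axis), in log2 units, 1 array minus 1 array per axis, coloured by complex. Most points lie left of 0, where 73 members are lower in control, and 49 lie below 0 in icKO; the named members include Atp5mpl, lower by 1.55 in control and higher by 1.46 in icKO.

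Iguratimod was also set against naive. In that comparison 65 of 76 members were higher with a median of 0.18, none passed (0.00548% of all genes were called, and 15 members and 1994 genes, 10.9% of those tested, had an unadjusted p under 0.05), and both arrays lay above both naive arrays for 36, against 20.7% of all genes, and below them for 1, against 15.1%. Atp5mpl (1.75), Uqcrh (0.86) and Cox7a2 (0.79) were the highest. Ndufb4b (-0.32), Uqcrfs1 (-0.16) and Ndufa7 (-0.09) were the lowest. These comparisons share the naive or EAE arrays with the first, so they are not independent of it.

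The p50 arrays were set against naive and against EAE. The part of their difference in sex-linked transcripts in the member values, X-linked members included, was not tested. The p50 label, the sex-linked difference and the change in title wording fall on the same arrays, so their parts cannot be told apart. Against naive none of the 76 members passed (0.751% of all genes did; 7 members and 3737 genes, 20.5% of those tested, had an unadjusted p under 0.05), 50 were higher and the median was 0.07. Both p50 arrays lay above both naive arrays for 28 members, against 31.6% of all genes, and below them for 8, against 26.9% of all genes. Uqcrh (0.87), Atp5mpl (0.71) and Cox6b1 (0.66) were the highest and Cox4i2 (-0.22), Cox7b (-0.16) and Atp5g2 (-0.16) the lowest.

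Against EAE the p50 arrays were lower for 73 of 76 members, with a median of -0.35, and 3 passed the test, all lower (1.62% of all genes were called lower). All 3 were also called higher in EAE than in naive microglia. Both comparisons use the same EAE arrays, so they are not independent. Cox5a differed by -1.26 ± 0.14 (adjusted p = 0.0168, limma), Atp5md by -1.07 ± 0.17 (adjusted p = 0.0416, limma) and Atp5o by -0.65 ± 0.11 (adjusted p = 0.047, limma). The lowest differences after Cox5a were in Cox7a2 (-1.15) and Atp5g2 (-1.12), neither past the threshold. For Atp5o the levels were 9.27 and 9.38 in EAE and 8.62 and 8.73 on the p50 arrays. Both p50 arrays lay below both EAE arrays for 63 members, against 31.0% of all genes, and above them for 1, against 26.4%. Of the 9 microglial markers 8 were higher on the p50 arrays than in EAE (median 0.79, 1 called), again opposite to the members. All 9 tested neutrophil markers (median -3.61, none called) and all 7 tested monocyte markers (median -1.62, 1 called) were lower, as were most members. The part of these marker lists in the member values was not tested. Of the X-linked members, Ndufa1 differed by -0.97, Ndufb11 by -0.57 and Cox7b by -0.27, none past the threshold. Sdha went the other way (0.17), as did Ndufb4b (0.36). Leaving out any EAE or p50 array left 0 members called and leaving out a naive or iguratimod array left 1, and with quantile normalization Cox5a alone passed.

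The last comparison asked whether the members differ between icKO and control over the 4 states. None passed (0.0% of all genes), and the lowest member adjusted p was 0.882 (limma). An unadjusted p under 0.05 was found for 3 members and 990 genes, 5.43% of those tested. The additive difference was positive for 61 of 76 members, with a median of 0.08 beside -0.02 for all genes, and its largest values were in Uqcrh (0.61 ± 0.18), Atp5mpl (0.42 ± 0.45) and Ndufc2, an accessory subunit of complex I (0.40 ± 0.14). The lowest were in Ndufb11 (-0.13), Atp5l (-0.09) and Ndufab1 (-0.09).

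Within each state the counts were as follows. icKO lay higher for 64 of 76 members in naive mice (47.9% of all genes), for 41 in EAE (47.8%), for 65 with iguratimod (47.6%) and for 22 on the p50 arrays (45.1%), and the medians were 0.18, 0.01, 0.22 and -0.07. icKO was at least 2-fold higher for 1 member in naive mice (Ndufa9, 1.04; 0.263% of all genes) and 2 with iguratimod (Atp5mpl, 2.09, and Uqcrh, 1.26; 1.26%). No member reached 2-fold in either direction in EAE (1.84% of all genes) or on the p50 arrays (0.378%). Naive control was the lowest array for 42 members (16.6% of all genes), and the naive comparison uses that array.

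Members with the same sign in all 4 states numbered 11 higher in icKO (4.9% of all genes) and 1 lower, Ndufab1 (7.92%). Uqcrh had the largest smallest difference (0.28 naive, 0.63 EAE, 1.26 iguratimod, 0.27 p50), followed by Ndufs1, the largest core subunit of complex I (0.22, 0.23, 0.20, 0.18), Atp5o (0.12, 0.11, 0.12, 0.11), Atp5g3 (0.09, 0.22, 0.30, 0.09), Ndufb6 and Ndufa13. The others were Ndufc2, Cox5b, Atp5h, Ndufv3 and Atp5a1. Ndufs1 and Atp5o had nearly equal differences in every state, while that of Uqcrh was largest with iguratimod. Ndufab1 lay lower by 0.02, 0.13, 0.06 and 0.14.

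**Figure D4:**
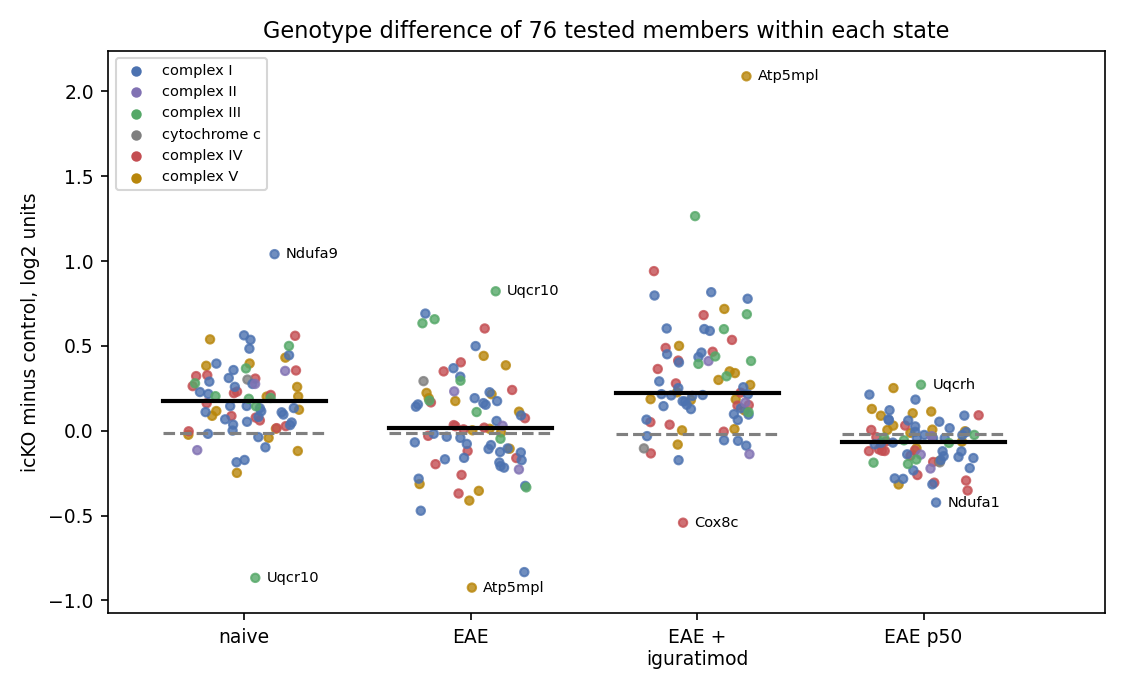
icKO minus control difference of the 76 tested members within each state, in log2 units, 1 array minus 1 array (points coloured by complex, solid bars member medians, dashed bars medians of all genes tested). Medians of the members were 0.18 in naive mice, 0.01 in EAE, 0.22 with iguratimod and -0.07 on the p50 arrays.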

How the data were processed

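The files hold 1 table of 65956 array rows on 8 arrays. The deposited values are linear intensities, made by the authors, per the submitters' processing notes from Affymetrix Expression Console; how probes were summarised, the normalization and the build are not given in the sources used here. Per the labels' protocols, the RNA was isolated by TRIzol plus a column kit, then amplified and biotin-labelled by a whole-transcript pico protocol. Arrays give no depth: their number limits the precision.

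Rows with 1 gene symbol (31258) were kept and named through the platform annotation, updated by RefSeq (1789 symbols replaced); 1492 rows with several symbols were left out and 33206 were unnamed. Where a gene had several probe sets (441 genes), the brightest was used. Values were analysed as log2(intensity + 16) with no further normalization, which understates the change of dim genes. Genes entered the test when 1 or more arrays put them over the 50th percentile of named probe sets. A model with state and genotype as additive terms on all 8 arrays, which leaves 3 residual degrees of freedom although no group is replicated, was fitted with limma 3.58.1 in R 4.3.3 (lmFit and eBayes) with Benjamini-Hochberg adjustment over all genes tested, at 0.05, and was tested on simulated data. In the model a difference that depends on both state and genotype counts as spread. The simulated arrays held independent noise and no such difference, so they cannot show whether the p-values hold for these arrays.

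By rule, the text names members past the test, the 3 highest and 3 lowest in each comparison, the brightest member of each complex, X-linked members, members with tissue-restricted paralogues, and up to 6 members in each direction with the same sign in all 4 states. Some further members (such as Uqcr10, Ndufs8 and Cox7a2l) were named after their values were seen. The members and gene lists were chosen with earlier results of these data known. Tables were handled with pandas 2.3.3 and figures drawn with matplotlib 3.10.9. Members whose symbol can share probes with a near-identical copy or pseudogene have uncertain values. Alternatives were the brightness filter, quantile normalization, centring of arrays, the mean of probe sets, the pseudocount, a trended and robust prior, genotype left out, each array or both p50 arrays left out and, chosen after seeing the data, the probe set on the gene's own chromosome. The deleted gene is not reported here.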

Additional observations from a re-analysis of the deposited data

Results flagged for a closer look

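3 members went one way with iguratimod in control and the opposite way in icKO, each by at least 0.5 on the log2 scale. Each side is 1 array minus 1 array, and the difference was not tested. Atp5mpl, a membrane subunit of ATP synthase, differed from EAE by -1.55 in control and 1.46 in icKO. Cox8c, a tissue-restricted subunit of complex IV, differed by 0.64 in control and -0.50 in icKO. Ndufb4b, an accessory subunit of complex I, differed by -0.79 in control and 0.65 in icKO. The probe set that names Ndufb4 carries several symbols and was left out. The Ndufb4b value may therefore be among those made uncertain by shared probes, which was not tested.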

How the results depend on the processing

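Of the member calls, EAE against naive (11) fell to 4 with quantile normalization, 7 with a trended and robust prior and 6 without both p50 arrays, and to between 0 and 9 when 1 array was left out. The 3 calls of p50 against EAE became 1 with quantile normalization and between 0 and 1 with 1 array left out. At 1.5-fold instead of 2-fold, icKO and control were apart in 2 members in naive mice, 7 in EAE and 13 with iguratimod. The share of all genes at 1.5-fold is not given here, so these counts do not set the members apart from other genes. The median member differences of all 6 comparisons kept their direction under the settings that keep all arrays; with 1 array left out the p50 minus naive median lay between -0.02 and 0.19. The cause of these changes was not tested, except that fewer arrays leave fewer residual degrees of freedom.

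Signs reversed for single members. With quantile normalization Atp5l, icKO minus control, was 0.071, with arrays centred on their median Ndufab1, iguratimod minus EAE, was -0.0158, and with the probe set on the gene's own chromosome (a setting chosen after seeing the data) Atp5g2, p50 minus naive, was 0.12. With 1 array left out, ranges that cross 0 were -0.82 to 0.31 for Ndufb4b in EAE minus naive, -0.71 to 0.067 in iguratimod minus naive and -0.21 to 0.92 in p50 minus EAE; -0.18 to 0.0162 for Ndufb10 in EAE minus naive and -0.10 to 0.10 in p50 minus EAE; -0.34 to 0.48 for Cox8c in iguratimod minus EAE; -0.23 to 0.0545 for Ndufa7 and -0.54 to 0.23 for Uqcrfs1 in iguratimod minus naive; -0.16 to 0.0196 for Atp5l and -0.13 to 0.87 for Atp5mpl in icKO minus control; -0.0353 to 0.37 for Sdha in p50 minus EAE; and -0.36 to 0.0376 for Atp5g2 in p50 minus naive. Pairing by animal was not possible because the labels give no replicate numbers and each group has 1 array. The model accounts for genotype as an additive term.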
